A study of Homo sapiens with 90 samples.

Results

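Interferon-stimulated genes are transcribed when a cell senses interferon, and they make up much of a cell's defence against viruses. The members described here are 9 type I interferon targets, IFI44L, IFI44, IFI6, IFIT1, IFIT3, ISG15, MX1, OAS1 and IRF7. They were represented by every probe set of the array that the probe annotation assigns to 1 gene symbol and that symbol is one of these, which gave 12 of 54715 probe sets and 9 of 19774 genes. IFI44, IFIT3 and OAS1 had 2 probe sets each and the other genes had 1.

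HepG2 cells, an established line from a human liver tumour, were exposed for 24 h to fenbuconazole, imazalil or 2,4-D or to the DMSO vehicle alone. Each compound was given at 9 doses that ran from 0.001 to 10 µM in steps of about 3-fold, with 3 replicate arrays per dose, and 3 DMSO arrays served all compounds. All cells received DMSO and no group received interferon or a virus, so the arrays hold no positive control for these genes. The first pair are azole fungicides, with a triazole ring in fenbuconazole and an imidazole ring in imazalil, while 2,4-D is a herbicide of the chlorophenoxy class. The deposited values were log2 array signals that had been normalized by RMA in 3 sets, 1 per compound, each set holding 27 treated arrays and its own copy of the same 3 DMSO arrays. The 3 comparisons with DMSO therefore share their control arrays. The labels do not say whether replicates came from separate cultures, so every p-value measures only the spread between arrays.

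Type I interferons bind a receptor made of IFNAR1 and IFNAR2, whose kinases JAK1 and TYK2 activate STAT proteins. Together with IRF9 these form a complex that binds the interferon-stimulated response element in the promoters of the target genes. The products act in different ways. ISG15 is a ubiquitin-like protein that is attached to other proteins, and OAS1 makes the second messenger that activates RNase L. MX1 is a GTPase that blocks viral components, IFIT1 binds foreign RNA, and IFIT3 binds IFIT1. IFI6 is a small membrane protein, IFI44 and IFI44L are related cytoplasmic proteins, and IRF7 is the transcription factor that amplifies interferon production.

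The response element is shown because it is the site at which the complex described above acts on interferon target genes. Its core was searched as GAAANNGAAA on both strands, the other strand reading TTTCNNTTTC, in the 250 bases before the start of each gene in the RefSeq promoter table (build GRCh38.p14). Of the 9 genes, 8 matched an entry, the other being IRF7, and 7 of these 8 held the core in at least 1 of their entries. Over all genes of the table the share was 3.71%. OAS1 had no match to these letters in the window searched, and MX1 had a match in 1 of 3 entries. Matches that overlap were counted separately. The windows below run 5′ to 3′ on the gene's own strand, with the core in capitals.
ISG15, chr1:1013369-1013414, plus strand: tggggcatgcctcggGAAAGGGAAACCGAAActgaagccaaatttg
IFI6, chr1:27672261-27672322, minus strand: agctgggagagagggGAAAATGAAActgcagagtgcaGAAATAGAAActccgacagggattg
IFIT1, chr10:89392492-89392544, plus strand: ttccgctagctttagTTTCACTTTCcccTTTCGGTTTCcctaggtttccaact
IFIT3, chr10:89332463-89332502, plus strand: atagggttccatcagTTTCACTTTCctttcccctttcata
IFI44, chr1:78649756-78649788, plus strand: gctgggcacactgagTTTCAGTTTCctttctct
IFI44L, chr1:78620360-78620399, plus strand: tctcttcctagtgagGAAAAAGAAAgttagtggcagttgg
MX1, chr21:41431839-41431878, plus strand: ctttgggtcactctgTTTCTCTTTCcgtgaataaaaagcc
ISG15, IFI6 and IFIT1 carried 2 cores within the window shown, and in ISG15 these overlapped. The 40 bases shown for IFI44L occurred a second time farther from the start, at chr1:78620269-78620308. A match describes the sequence only, and no binding was measured on these arrays.

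The arrays recorded a HepG2 profile. All 8 hepatocyte lineage markers had DMSO means of 10.07 to 13.11, whereas the 3 endothelial markers lay at 2.57 to 3.66 and the 5 fibroblast markers at 2.07 to 4.28. Of the 6 blood markers measured, 5 lay at 2.60 to 3.12 and LYZ, which encodes lysozyme, reached 11.05. None of these 22 markers passed the threshold at 10 µM in any set. A chemical response was recorded for both azoles: CYP1A1, the target of the aryl hydrocarbon receptor, differed from DMSO by 1.66 ± 0.21 at 10 µM fenbuconazole and by 3.01 ± 0.21 at 10 µM imazalil (log2, SE, limma, adjusted p = 0.0015 and 2.7e-09). At 10 µM 2,4-D the difference of CYP1A1 was 0.04 ± 0.12 (adjusted p = 1 in limma's test).

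At 10 µM none of the 9 interferon-stimulated genes passed the test with any of the 3 compounds. In limma's moderated test with Benjamini-Hochberg adjustment over all 40914 probe sets with 1 symbol, 0 of 12 member probe sets passed an adjusted p of 0.05 with fenbuconazole, where 0.00978% of all probe sets did. The count was 0 of 12 with imazalil, against 0.0464% of all probe sets, and 0 of 12 with 2,4-D, where 0% of all passed. At an unadjusted p under 0.05 the member counts were 1 of 12 with fenbuconazole, where 4.40% of all probe sets were, 0 with imazalil (5.44%) and 2 with 2,4-D (4.07%). The median log2 difference over the 12 was -0.012 for fenbuconazole (5 above DMSO), 0.018 for imazalil (6 above) and 0.063 for 2,4-D (9 above), and the medians over all probe sets tested were -0.0017, -0.0021 and -0.0001. These counts and medians describe a list chosen with earlier results known.

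The intervals give the size of change that the arrays leave room for. Of the 36 fold changes at 10 µM, 12 for each compound, the lowest was 0.828 and the highest 1.33, and 33 had a 95% interval that held 1. The interval that reached lowest was that of IFIT1 with imazalil, at 0.635, and the one that reached highest was that of IFIT3 with imazalil, at 1.84. No interval reached a 2-fold difference in either direction. RMA compresses the differences of dim probe sets, and 10 of the 12 had a mean over all columns below 4, where the medians of whole arrays lay at 2.95 to 3.15. For these 10 a narrow interval says little about transcripts that the array may hardly register.

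**Figure D1:**
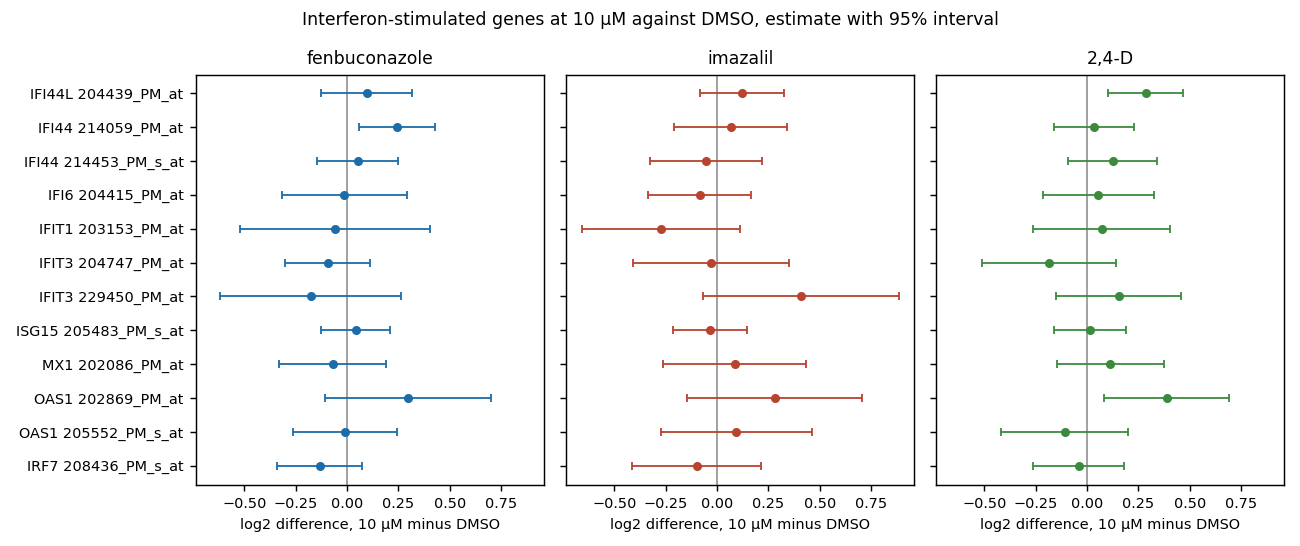
Log2 difference of 10 µM minus DMSO (x axis) for each of the 12 probe sets (y axis), 1 panel per compound, as the limma estimate with its 95% interval from 3 arrays a group. Of the 36 intervals 33 cross the line at 0 and none reaches a log2 difference of 1 or -1.

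ISG15 was 1 of the 2 genes with a clear signal. In the fenbuconazole set it read 6.79, 6.87 and 6.95 at 10 µM, against 6.91, 6.79 and 6.78 with DMSO (log2 signal). In the imazalil set the arrays read 6.83, 6.84 and 6.68 at 10 µM and 6.85, 6.82 and 6.78 with DMSO. In the 2,4-D set they read 6.95, 7.00 and 6.89 at 10 µM and 6.96, 6.92 and 6.91 with DMSO. The 10 µM and DMSO arrays overlapped in all 3 sets. The fold changes of 10 µM over DMSO were 1.03 (95% interval 0.916 to 1.16) for fenbuconazole, 0.977 (0.863 to 1.11) for imazalil and 1.01 (0.895 to 1.14) for 2,4-D.

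Below 10 µM the ISG15 signal was lower than with DMSO at all 8 doses of each compound, although no dose passed the threshold. With fenbuconazole the difference was -0.23 ± 0.08 at 0.001 µM, -0.24 ± 0.08 at 0.03 µM and -0.16 ± 0.08 at 3 µM (log2, SE). With imazalil it was lowest at 0.01 µM, where the arrays read 6.69, 6.49 and 6.65, against 6.85, 6.82 and 6.78 with DMSO. With 2,4-D it was lowest at 0.1 µM, where they read 6.81, 6.69 and 6.73, against 6.96, 6.92 and 6.91 with DMSO. The smallest unadjusted p was 0.0073, for 0.03 µM fenbuconazole, with an adjusted p of 1 in limma's test.

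Counted over arrays, ISG15 lay below every DMSO array of its set on 22 of 27 treated arrays with fenbuconazole, 21 of 27 with imazalil and 22 of 27 with 2,4-D. It was the only 1 of the 12 member probe sets to do so on at least 20 arrays, and the share of all probe sets that did was 1.81% in the fenbuconazole set, 2.19% in the imazalil set and 2.11% in the 2,4-D set. In the other direction, with at least 20 of 27 treated arrays above every DMSO array, there was 1 member with fenbuconazole, IFI44 (214059_PM_at, 21 arrays), against 1.75% of all probe sets. There were 0 members with imazalil, against 1.81%, and 0 with 2,4-D, against 1.69%. The same IFI44 probe set came near the limit there, with 18 of 27 arrays for imazalil and 18 of 27 for 2,4-D. The limit of 20 arrays was chosen after the values were seen. The 3 sets share the same 3 DMSO arrays, so the repeat across sets is not independent.

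A serial number in the labels follows the dose within each compound and replicate, with the 10 µM arrays nearest to DMSO in the 2,4-D set. Dose and place in that order cannot be told apart. A pair of contrasts was added after these values were seen. For ISG15, 10 µM set against the 3 lowest doses gave 0.23 for fenbuconazole, 0.12 for imazalil and 0.10 for 2,4-D, and the average over the 9 doses set against DMSO gave -0.15, -0.12 and -0.11 in the same order (log2). None passed, with adjusted p from 0.502 to 1, and 0 of the 12 members passed either contrast in any set. Of all probe sets, 0.0318% passed the first contrast with fenbuconazole, 0.122% with imazalil and 0% with 2,4-D, and 0% passed the second contrast with each compound. The slope of ISG15 per 10-fold dose over the 27 treated arrays was 0.04 ± 0.02 for fenbuconazole (log2, SE, unadjusted p = 0.0079, adjusted p = 0.63 in limma's test), 0.03 ± 0.02 for imazalil and -0.0003 ± 0.017 for 2,4-D.

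**Figure D2:**
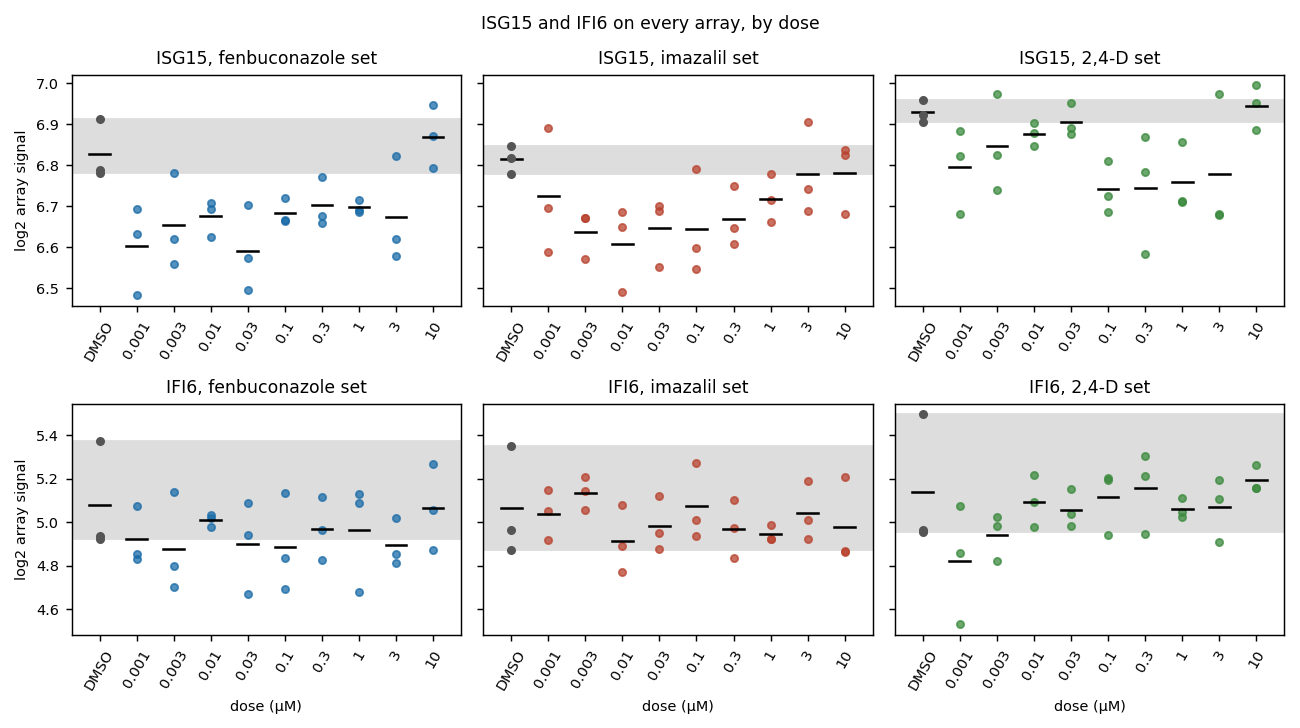
Log2 array signal (y axis) of ISG15 (top) and IFI6 (bottom) on every array by dose in µM (x axis), 1 column per compound set. Points are arrays, black bars the mean of 3, and the grey band the range of the 3 DMSO arrays, which are the grey points at the left. ISG15 lies below the band on 22, 21 and 22 of 27 treated arrays in the fenbuconazole, imazalil and 2,4-D sets, and most 10 µM arrays reach it.

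IFI6 was the other gene with a mean signal above 4. It read 5.06, 5.27 and 4.87 at 10 µM fenbuconazole, against 4.92, 5.38 and 4.94 with DMSO (log2 signal). At 10 µM imazalil it read 4.87, 5.21 and 4.86, against 4.88, 5.35 and 4.97 with DMSO. At 10 µM 2,4-D it read 5.16, 5.26 and 5.16, against 4.97, 5.50 and 4.96 with DMSO. The second DMSO array stood above both other DMSO arrays in each copy, and the 10 µM arrays fell inside the DMSO range or just below it.

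IFI6 averaged highest over the arrays numbered 2 in each set. In the fenbuconazole set its mean over the 10 groups was 4.89, 5.10 and 4.88 for the arrays numbered 1, 2 and 3. The means were 5.00, 5.10 and 4.94 for imazalil. For 2,4-D they were 4.97, 5.18 and 5.04. The F test of the replicate number beside the groups gave an unadjusted p of 0.0037, 0.041 and 0.0095 in these sets, and none passed (limma, adjusted p = 0.28, 0.43 and 0.20). Over all 12 members 0 passed this test in any set, while 0.0489% of all probe sets passed with fenbuconazole, 0.0122% with imazalil and 0.904% with 2,4-D. The DMSO arrays are in every set, so these are not 3 separate tests. The steepest slope of IFI6 per 10-fold dose was that of 2,4-D at 0.06 ± 0.02 (log2, SE, unadjusted p = 0.0049, adjusted p = 1 in limma's test), where 1 of 3 arrays at 0.001 µM read 4.53.

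OAS1, the oligoadenylate synthetase, gave the largest difference of any member at any dose, and it did so in 1 of its 2 probe sets. At 0.01 µM 2,4-D probe set 202869_PM_at read 4.16, 4.37 and 3.74, against 3.65, 3.12 and 3.39 with DMSO. All 3 treated arrays lay above all 3 DMSO arrays, and the log2 difference was 0.70 ± 0.15 (SE). Its unadjusted p was 6.5e-05 and its adjusted p 0.762, and the F test over the 9 doses of 2,4-D gave 0.000168 unadjusted and 0.725 adjusted (limma). The neighbouring doses read lower: the mean signal was 3.35 at 0.003 µM, 4.09 at 0.01 µM and 3.52 at 0.03 µM.

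The other OAS1 probe set, 205552_PM_s_at, had a log2 difference of -0.22 at the same 0.01 µM dose of 2,4-D. Across the 27 treated arrays the correlation of the 2 OAS1 probe sets was -0.30 with fenbuconazole, 0.19 with imazalil and -0.18 with 2,4-D, as a description over arrays that share their processing. The highest other OAS1 values were also those of 202869_PM_at. It read 3.68, 3.99 and 3.97 at 1 µM fenbuconazole, against 3.71, 3.20 and 3.28 with DMSO, a log2 difference of 0.48 ± 0.20 (SE) in which the arrays overlapped. At 10 µM its differences were 0.30 ± 0.20 for fenbuconazole, 0.28 ± 0.21 for imazalil and 0.39 ± 0.15 for 2,4-D, and those of 205552_PM_s_at were -0.01 ± 0.12, 0.09 ± 0.18 and -0.11 ± 0.15. Without the replicates numbered 2, the differences of 202869_PM_at were 0.09, 0.10 and 0.20.

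**Figure D3:**
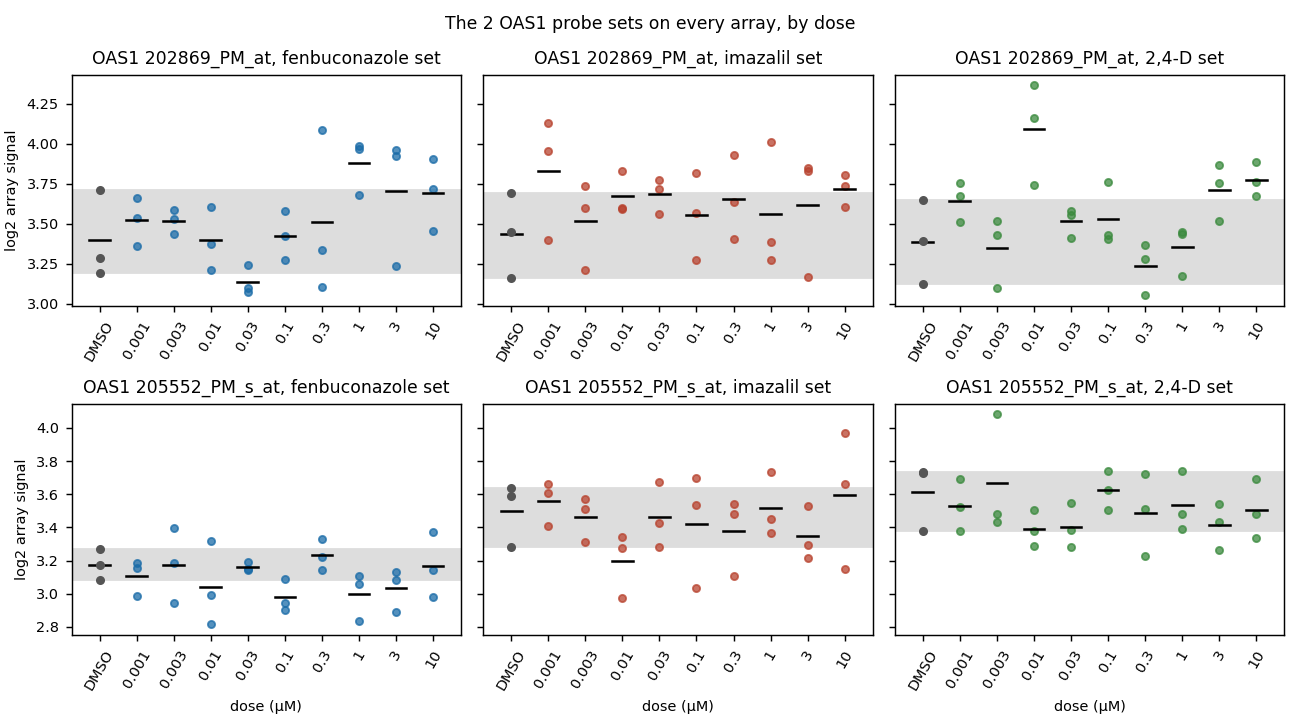
Log2 array signal (y axis) of the 2 OAS1 probe sets (rows) on every array by dose in µM (x axis), 1 column per compound set. Points are arrays, black bars the mean of 3, and the grey band and grey points the 3 DMSO arrays. At 0.01 µM 2,4-D 202869_PM_at averages 4.09, against 3.39 with DMSO, and 205552_PM_s_at averages 3.39, against 3.61 with DMSO.

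IFIT1 and IFIT3, neighbours on chromosome 10, had low signals and a wide spread. IFIT1 read 3.53, 4.01 and 3.67 at 10 µM imazalil, against 4.31, 3.82 and 3.89 with DMSO, a log2 difference of -0.27 ± 0.19 (SE). It was -0.02 without the replicates numbered 1 and -0.51 without those numbered 2. Its difference at 10 µM was -0.06 ± 0.22 for fenbuconazole and 0.07 ± 0.16 for 2,4-D. The slope of IFIT1 per 10-fold dose was -0.08 ± 0.03 for imazalil (log2, SE, unadjusted p = 0.012, adjusted p = 0.61 in limma's test), and its mean was at or below that of DMSO at 8 of 9 doses.

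IFIT3 showed how the pair of probe sets for 1 gene could part. At 10 µM imazalil 229450_PM_at read 3.41, 4.42 and 4.16, against 3.75, 3.40 and 3.60 with DMSO, a difference of 0.41 ± 0.23, while 204747_PM_at had -0.03 ± 0.18 (log2, SE). The 229450_PM_at arrays overlapped DMSO, the first of the 3 being at the DMSO level. The difference was 0.78 without the replicates numbered 1 and 0.11 without those numbered 2. In all 3 sets the 229450_PM_at signal correlated with the spread of values on the array (r = 0.51, 0.39 and 0.50 over the 27 treated arrays of the fenbuconazole, imazalil and 2,4-D sets). This was not particular to 229450_PM_at. In the same order IFIT1 had 0.40, 0.32 and 0.27, and IFI44 (214453_PM_s_at) had -0.25, -0.58 and -0.42. With the spread as a covariate the 229450_PM_at difference at 10 µM imazalil was 0.32 ± 0.22 (log2, SE), and its sign was kept in each set.

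MX1, the dynamin-like GTPase, read 3.41, 3.79 and 3.19 at 10 µM fenbuconazole, against 3.67, 3.41 and 3.53 with DMSO. At 10 µM the log2 difference was -0.07 ± 0.13 for fenbuconazole, 0.08 ± 0.17 for imazalil and 0.11 ± 0.13 for 2,4-D (SE). Its arrays overlapped DMSO at 10 µM in all sets. MX1 did not pass at any dose.

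IFI44L and IFI44 lie next to each other on chromosome 1 and read at the low end of the array's range. IFI44L read 2.59, 2.55 and 2.50 at 10 µM 2,4-D, against 2.35, 2.25 and 2.20 with DMSO, so the groups did not overlap. The log2 difference was 0.28 ± 0.09 (SE, unadjusted p = 0.0034, adjusted p = 1 in limma's test), and that at 10 µM was 0.09 ± 0.11 for fenbuconazole and 0.12 ± 0.10 for imazalil. IFI44 (214059_PM_at) read 2.23, 2.39 and 2.28 at 10 µM fenbuconazole, against 2.11, 2.04 and 2.02 with DMSO, again without overlap. Its log2 difference was 0.24 ± 0.09 (SE, unadjusted p = 0.012, adjusted p = 0.999 in limma's test), while the other IFI44 probe set, 214453_PM_s_at, had 0.05 ± 0.10. All 3 probe sets stayed below the array medians on every array, where signal and background are hard to separate.

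Members whose 3 arrays at 10 µM all lay above the 3 DMSO arrays numbered 1 of 12 for fenbuconazole, where 4.72% of all probe sets did, 0 of 12 for imazalil (5.86%) and 2 of 12 for 2,4-D (3.63%). The 2 in the 2,4-D set were IFI44L and OAS1 (202869_PM_at). Members below DMSO without overlap numbered 0 of 12 in each set, where 4.27% of all probe sets were with fenbuconazole, 6.29% with imazalil and 3.4% with 2,4-D. Counts of 0 to 2 among 12 do not set the members apart from these shares.

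IRF7 read 2.47, 2.33 and 2.51 at 10 µM fenbuconazole, against 2.46, 2.72 and 2.53 with DMSO. Its log2 difference at 10 µM was -0.13 ± 0.10 for fenbuconazole, -0.10 ± 0.15 for imazalil and -0.04 ± 0.11 for 2,4-D (SE). In the imazalil set its mean over the groups was 2.40, 2.46 and 2.64 for replicate numbers 1, 2 and 3, with an unadjusted p of 0.0052 and an adjusted p of 0.30 in limma's F test of the number.

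No member passed at a lower dose either. Of the 324 member values, 12 probe sets at 9 doses of 3 compounds, 163 were above DMSO and 161 below, and 323 lay within 0.5 of it on the log2 scale. The single value beyond was that of OAS1 at 0.01 µM 2,4-D. The number of members past an adjusted p of 0.05 at 1 or more doses was 0 of 12 for fenbuconazole, where 0.00978% of all probe sets were, 0 for imazalil (0.0464%) and 0 for 2,4-D (0.00244%). In the F test over the doses it was 0 for fenbuconazole (0.00733% of all), 0 for imazalil (0.0244%) and 0 for 2,4-D (0%). For the slope on log10 dose it was 0 for fenbuconazole (0.00978% of all), 0 for imazalil (0.0318%) and 0 for 2,4-D (0%). An unadjusted p under 0.05 was found for 21 of the 324 values, or 6.48%, against 3.8% over all probe sets and doses. The doses of a set share 1 DMSO mean and the sets share the DMSO arrays. The 324 values are therefore not independent, and the 2 shares do not test the list. These 21 were spread over ISG15 (6, all lower), IFI44, IFI44L, OAS1, IFIT3, IFI6 and IRF7, in both directions.

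**Figure D4:**
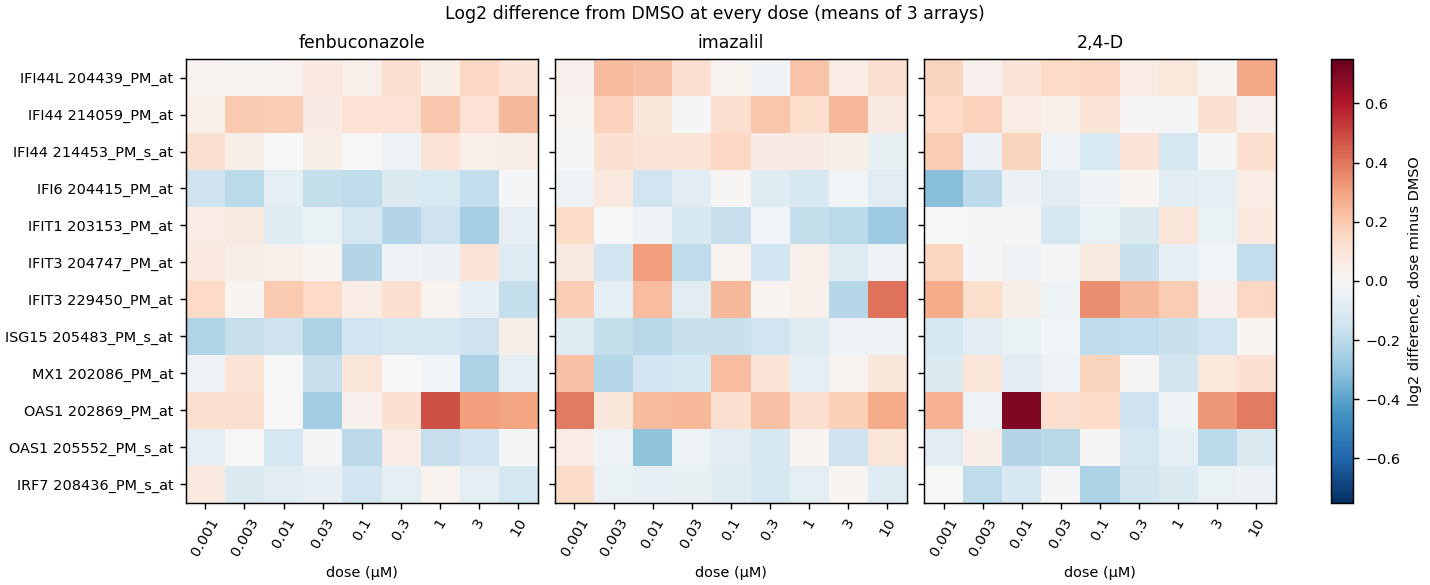
Log2 difference of each dose minus DMSO, as colour from blue (lower) to red (higher), for the 12 probe sets (rows) by dose in µM (x axis), 1 panel per compound. The ISG15 row is blue at every dose below 10 µM, and the darkest cell is OAS1 202869_PM_at at 0.01 µM 2,4-D, at 0.70.

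The median over the list stayed near 0 at every dose. On the log2 scale the difference lay between -0.069 and 0.076 at the 27 doses of the 3 compounds, with both signs found for each compound. The lowest was at 1 µM 2,4-D and the highest at 0.001 µM 2,4-D.

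**Figure D5:**
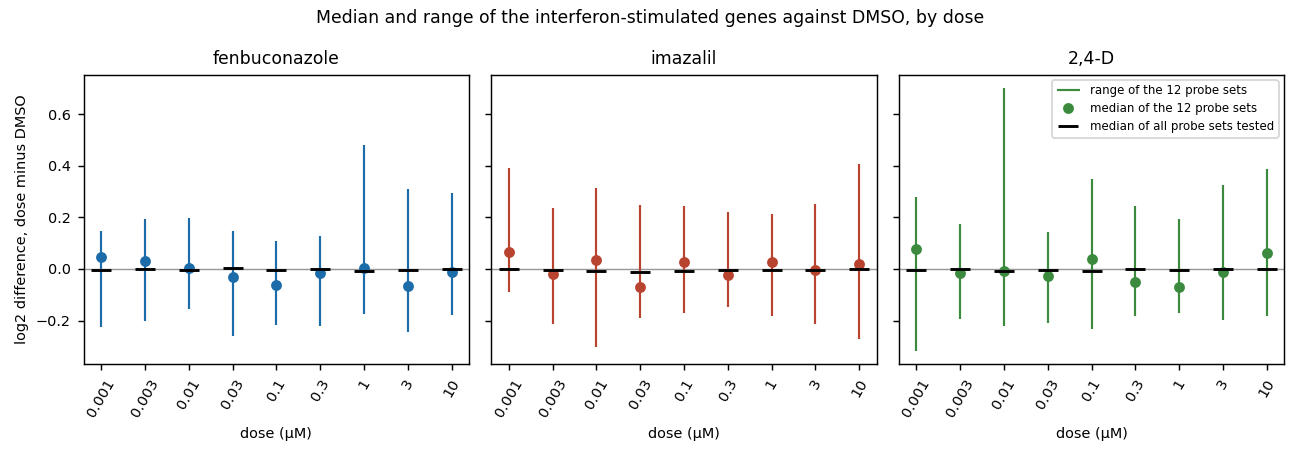
Median (points) and range (vertical lines) of the log2 difference from DMSO over the 12 probe sets at each dose in µM (x axis), 1 panel per compound, with the median over all probe sets tested as a black dash. The member medians stay between -0.069 and 0.076, and the longest line is that of 0.01 µM 2,4-D, which ends at 0.70 with OAS1.

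The compounds were then set against each other at each dose after subtraction of the set's own DMSO mean, in 3 pairs and 324 member comparisons, with p-values adjusted over all probe sets of a comparison. At 10 µM 0 of 12 members differed between imazalil and fenbuconazole, the 2 azoles, where 0.0171% of all probe sets did. The count was 0 between fenbuconazole and 2,4-D (0.044% of all) and 0 between imazalil and 2,4-D (0.12% of all). For ISG15 imazalil minus fenbuconazole was -0.07 on the log2 scale, with a 95% interval from -0.24 to 0.09. For IFI6 it was -0.07, with an interval from -0.33 to 0.19. The widest gap between the azoles was that of IFIT3 (229450_PM_at) at 0.58 ± 0.24 (SE, interval 0.11 to 1.06, unadjusted p = 0.018, adjusted p = 0.46 in limma's test), with the mean above DMSO for imazalil and below it for fenbuconazole. Over all doses 0 of 324 passed, and the share of all probe sets past the threshold at 1 or more doses was 0.0171% for imazalil against fenbuconazole, 0.0489% for fenbuconazole against 2,4-D and 0.13% for imazalil against 2,4-D. Of the 324, 20 had an unadjusted p under 0.05, or 6.17%, against 6.13% over all probe sets, pairs and doses. The lowest was OAS1 (202869_PM_at) at 0.01 µM, where fenbuconazole minus 2,4-D was -0.70 ± 0.18 (log2, SE, unadjusted p = 0.00026, adjusted p = 0.43). A p that misses the threshold does not show that the compounds act alike. The dim members had both narrow and wide intervals. For imazalil minus fenbuconazole at 10 µM the SE was 0.11 for IFI44L and 0.24 for IFIT3 (229450_PM_at), against 0.13 for IFI6. RMA compresses the differences of dim probe sets, so a narrow interval there says little.

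Correlations between members over the arrays were low. Over the 27 treated arrays of a set the 66 pairs of member probe sets had a median correlation of -0.0092 with fenbuconazole, 0.072 with imazalil and 0.066 with 2,4-D, with 33, 40 and 39 pairs above 0. Most of these pairs include a dim probe set. For ISG15 and IFI6, the pair with a clear signal, the correlation was 0.22 with fenbuconazole, 0.09 with imazalil and 0.19 with 2,4-D. The highest was 0.55, between ISG15 and IFI44 (214059_PM_at) in the fenbuconazole set. The 5 genes outside the interferon lists whose pattern was most like the mean of ISG15 and IFI6 were PILRB, PSMA5, FUCA1, HYOU1 and IMPDH1, with a mean Pearson correlation over the 3 sets of 0.511, 0.507, 0.505, 0.495 and 0.483 (27 arrays a set). These 5 were picked as the highest among all genes outside the lists, so a high value follows from the choice. The sets also differed: FUCA1 had 0.63 with fenbuconazole, 0.19 with imazalil and 0.70 with 2,4-D. All correlations between genes given here are a description over arrays that share their processing.

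The rest of the pathway was taken from a list of 91 genes, of which 87 were measured with 185 probe sets. At 10 µM 0 of the 185 passed in either direction with any compound, and the median log2 difference was 0.0081 for fenbuconazole, -0.012 for imazalil and -0.0004 for 2,4-D, with 100, 87 and 91 probe sets above DMSO. At an unadjusted p under 0.05 there were 9 of 185 with fenbuconazole, where 4.40% of all probe sets were, 7 with imazalil (5.44%) and 3 with 2,4-D (4.07%). None of the 185 passed at any dose, in the F test over doses or for the slope.

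The ligands were at the floor of the arrays. All 8 interferon genes measured had a mean below 4, and IFNB1, the first interferon that infected cells make, averaged 2.35 ± 0.13 at 10 µM fenbuconazole and 2.30 ± 0.16 with DMSO (SD, n = 3 each). The receptors were not: the 6 receptor genes, with 13 probe sets, all had a mean above 4 in their brightest probe set. IFNAR1 averaged 6.38 ± 0.20 at 10 µM fenbuconazole and 6.51 ± 0.05 with DMSO. IFNAR2 averaged 7.03 ± 0.09 at 10 µM fenbuconazole and 7.09 ± 0.12 with DMSO.

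Among the 9 signal transducers measured, JAK1 averaged 8.64 ± 0.11 at 10 µM fenbuconazole and 8.58 ± 0.07 with DMSO, and TYK2 6.48 ± 0.26 and 6.44 ± 0.20 in the same groups (SD, n = 3 each). IRF9, the DNA-binding part of the complex that acts at the response element, averaged 5.61 ± 0.07 at 10 µM imazalil and 5.82 ± 0.06 with DMSO, a log2 difference of -0.22 ± 0.13 (SE, unadjusted p = 0.10, adjusted p = 0.94 in limma's test). It was 0.02 ± 0.09 for fenbuconazole and -0.15 ± 0.09 for 2,4-D. Of the 11 sensors, which detect viral nucleic acid, and of the 5 inhibitors 0 passed in any of these tests. A total of 2 probe sets of the list passed the test of the replicate number, both in the 2,4-D set, where 0.904% of all probe sets passed it, so that the count does not set the list apart. They belonged to STAT3, with means of 9.38, 9.16 and 9.23 for numbers 1, 2 and 3, and to SP110, with means of 4.79, 4.75 and 5.00 (limma, adjusted p = 0.027 and 0.039). Without the arrays numbered 1, this test called 1 of all probe sets in that set.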

How the data were processed

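The authors deposited log2 signals per probe set. Per the labels they were RMA-normalized within each compound's set, RMA and Partek are named, and versions and scanner-level steps are not given in the sources used here. RMA shrinks differences between dim probe sets, so small fold changes understate those of rare transcripts. Columns were matched to samples by the sample identifier that names each column, and a sample's group was taken from its title.

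A linear model with 1 mean per group was fitted for each compound (lmFit and eBayes of limma 3.58.1 in R 4.3.3) to the 30 arrays of the set, over 40914 probe sets with 1 symbol. The 102 control probe sets, 864 with several symbols and 12835 unlisted here were left out. Tests were two-sided with a threshold of 0.05 on Benjamini-Hochberg adjusted p, per contrast. They covered every dose against DMSO, all doses at once (F test), the slope on log10 dose over the 27 treated columns, the replicate number beside the groups, and compounds against each other on DMSO-centred values. Probe sets under a mean of 4 were called dim and kept. The scripts were tested on simulated data. Array number limits the precision.

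The members and lists were chosen with earlier results of these data known. Named were all member probe sets, list genes past a test, the receptors, kinases, IRF9 and IFNB1, the 5 most alike genes, and CYP1A1. Of the pathway list 4 genes were not analysed here. Symbols were those of the annotation (40858 matched RefSeq by Entrez identifier and 0 differed).

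Same-numbered 10 µM and DMSO arrays of 2,4-D deviated together (r = 0.40, 0.30 and 0.17), so the numbers were taken as possible pairs in that set. The values do not settle this for any set. The fenbuconazole set, with its copy of the same DMSO arrays, gave 0.38, 0.20 and 0.08. The dose comparisons and slopes given here for 2,4-D still come from the fit without this pairing, so their SEs, intervals and p-values ignore it. The pairing entered them only in an alternative, as a block. Alternatives were the replicate number as a block, no dim probe sets, 1 probe set per gene, a trended robust variance, the 2 groups only, joint quantile normalization, the array spread as a covariate, and leaving out replicates.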

Additional observations from a re-analysis of the deposited data

How the results depend on the processing

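The count of member probe sets past the threshold stayed 0 in every test, for every compound and pair, under every alternative in which it was computed. With the replicate number as a block it was 0 as well, and the block changed no call of a member. For fenbuconazole and imazalil the numbers were not taken as pairs, although the values do not settle this. Same-numbered 10 µM and DMSO arrays correlated at 0.38, 0.20 and 0.08 with fenbuconazole and at -0.13, 0.08 and 0.14 with imazalil. In each of these sets 19 of 30 arrays were closest to their own number, against 23 of 30 with 2,4-D. What these counts would be without pairing was not tested. The mean correlation between same-numbered arrays was 0.0408 with fenbuconazole, 0.0376 with imazalil and 0.0511 with 2,4-D. Between arrays of other numbers it was -0.0204, -0.0187 and -0.0255 in the same order. Over all probe sets the calls at 10 µM with fenbuconazole were 4, but 19 without dim probe sets, 14 with a trended robust variance and 0 with the 2 groups only. With imazalil they were 19, but 39, 36 and 4 in these settings. The replicate number with 2,4-D called 370 of all probe sets, 805 with a trended robust variance and 1 without replicate 1.

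The median log2 difference of the members at 10 µM was -0.059 for imazalil without dim probe sets, which leaves ISG15 and IFI6, against 0.018 with all 12. Leaving out a replicate gave -0.0073 to 0.028 for fenbuconazole, -0.055 to 0.050 for imazalil and 0.016 to 0.091 for 2,4-D. Member differences that were not called changed sign in a few settings, and the cause was not tested: with the array spread as a covariate IFIT1 became 0.058 and OAS1 (205552_PM_s_at) 0.013 with fenbuconazole and IFI44 (214453_PM_s_at) 0.0063 with imazalil, and with joint quantile normalization IFI6 became 0.027 with fenbuconazole.

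Leaving out 1 replicate turned the sign of these differences at 10 µM, given as the lowest and highest log2 value. With fenbuconazole IFI44 (214453_PM_s_at) ran from -0.026 to 0.13, IFI6 from -0.11 to 0.14, IFIT1 from -0.22 to 0.24, IFIT3 (204747_PM_at) from -0.20 to 0.060, ISG15 from -0.020 to 0.12, MX1 from -0.29 to 0.065 and OAS1 (205552_PM_s_at) from -0.11 to 0.082. With imazalil IFI44 (214453_PM_s_at) ran from -0.13 to 0.042, IFI6 from -0.20 to 0.059, IFIT3 (204747_PM_at) from -0.087 to 0.077, ISG15 from -0.061 to 0.016 and OAS1 (205552_PM_s_at) from -0.095 to 0.32. With 2,4-D IFI44 (214059_PM_at) ran from -0.0030 to 0.094, IFI6 from -0.037 to 0.23, IFIT1 from -0.033 to 0.23, ISG15 from -0.014 to 0.044, MX1 from -0.074 to 0.26, OAS1 (205552_PM_s_at) from -0.23 to 0.034 and IRF7 from -0.10 to 0.050. In the contrasts added after the data were seen, IFI6 at 10 µM minus the 3 lowest doses ran from -0.14 to 0.035 with imazalil, and the mean of the 9 doses minus DMSO from -0.15 to 0.056 with imazalil and from -0.17 to 0.054 with 2,4-D. No block could be fitted for the test of the replicate number itself.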
